A study of Mus musculus with 18 samples.

Results

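The 8 genes described here encode neurotrophins, receptors of neurotrophins and a receptor that works beside them: Ntf3, Ntf5, Bdnf, Ntrk2, Ntrk3, Ngfr, Sort1 and Gfra2. They were taken by symbol from a table of 21011 genes, and all 8 had a row in it. Of these, 7 had enough reads to be among the 16517 genes tested, and Ntrk3 did not. The 8 genes are a chosen subset and not the whole of the neurotrophin system. RNA had been sequenced from the epidermal side of dorsal skin of 18 mice, 1 library per mouse, and the labels call the skin telogen, the phase in which follicles rest.

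All mice had received tamoxifen at 8 weeks of age and were harvested 10 weeks later. KR mice (n = 4) carried K14-CreERT, driven by the promoter of a keratin of basal keratinocytes, and had lost Rbpj, the transcription factor that carries Notch signals to target genes. They were set against 2 controls of their own batch. LR mice (n = 3) had lost Rbpj through Lrig1-CreERT2, expressed from the locus of an upper hair follicle stem cell marker, and were set against 3 controls of their batch. KN1 mice (n = 4) had lost the receptor Notch1 through a driver that the labels write K14-CreERT1, and were set against 2 controls of their batch. The genotype of the controls, and whether they carried Cre, is not given in the labels used here.

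Neurotrophins are secreted growth factors best known for keeping sensory and sympathetic neurons alive and for drawing their fibres into target tissues such as skin. They bind tyrosine kinase receptors of the Trk family and a shared receptor, Ngfr (p75NTR), while sortilin, the product of Sort1, binds their precursor forms and sorts proteins inside cells. In mouse skin, neurotrophins and their receptors are also made by keratinocytes of the hair follicle, where they are known to take part in the hair growth cycle. Gfra2 is the surface receptor for neurturin, a ligand of the GDNF family, and signals through the kinase Ret.

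Total counts ran from 8076316 to 9562955 in KR mice against 11236817 to 20260259 in their controls, from 8541208 to 11239648 in LR mice against 8299785 to 11056572 in their controls, and from 8103155 to 9213875 in KN1 mice against 10926731 to 21216169 in their controls. In KR control 4 and in KN1 control 1, which were the deepest, reads of 2 sequencing occasions of 1 mouse are merged. KR control 6, LR control 5 and KN1 control 7 carry a second name in the labels. The summed level of 21 hair matrix genes, which are active in growing hair, went against the telogen label in some mice: 8 of the 18 had 204 to 1136 CPM (KR mice 3, 4 and 5, KR control 6, LR mouse 2, LR control 2 and KN1 mice 2 and 4), and the other 10 had 41.0 to 77.0 CPM. Results that these mice bear on are also given without them, an alternative set after the sums were seen that leaves 1 KR mouse and 1 KR control, assumed to vary like the other groups.

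Levels below are CPM, counts scaled to the size of each library, and changes are log2 fold changes of mutants over their own controls with the SE. All adjusted p-values are from the quasi-likelihood test of edgeR with Benjamini-Hochberg adjustment over all 16517 tested genes. Notch1 itself was at 112 ± 31.2 CPM in KN1 mice against 212 ± 56.2 CPM in their controls (log2 fold change -0.91 ± 0.19, adjusted p = 0.0251). Rbpj was at 43.1 ± 2.30 CPM in KR mice against 59.5 ± 1.89 CPM in their controls (adjusted p = 0.135). In LR mice it was at 33.5 ± 4.07 CPM against 53.0 ± 17.4 CPM in their controls (adjusted p = 0.0659). KN1 mice were also below their controls for Rbpj, at 34.2 ± 2.42 CPM against 43.4 ± 1.10 CPM (adjusted p = 0.31). Counts over a whole gene do not resolve a deleted exon.

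None of the 7 tested genes passed the adjusted threshold of 0.05 in any single mutant. The closest were Sort1, lower by a similar amount in both kinds of Rbpj mutant, and Gfra2, higher in LR mice. By edgeR 0 of 7 passed in KR mice, where 1.6% of all tested genes did, 0 of 7 in LR mice, where 1.12% did, and 0 of 7 in KN1 mice, where 1.97% did. At an unadjusted p below 0.05 the counts were 1 in KR (Sort1), 2 in LR (Gfra2 and Sort1) and 0 in KN1, where 22.9%, 15.5% and 18.5% of all tested genes were below it. DESeq2 called 1 gene in KR (Sort1, adjusted p = 0.0133), 2 in LR (Gfra2, adjusted p = 0.00106, and Sort1, adjusted p = 0.0097) and 0 in KN1, and it called 7.29%, 3.38% and 5.39% of all genes given an adjusted p. No count of called genes is given without the 8 mice with high hair matrix genes. That fit leaves 1 KR mouse and 1 KR control. The median log2 fold change of the 7 genes was -0.18 in KR, 0.18 in LR and -0.09 in KN1, beside 0.04, -0.0041 and 0.018 over all tested genes.

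**Figure D1:**
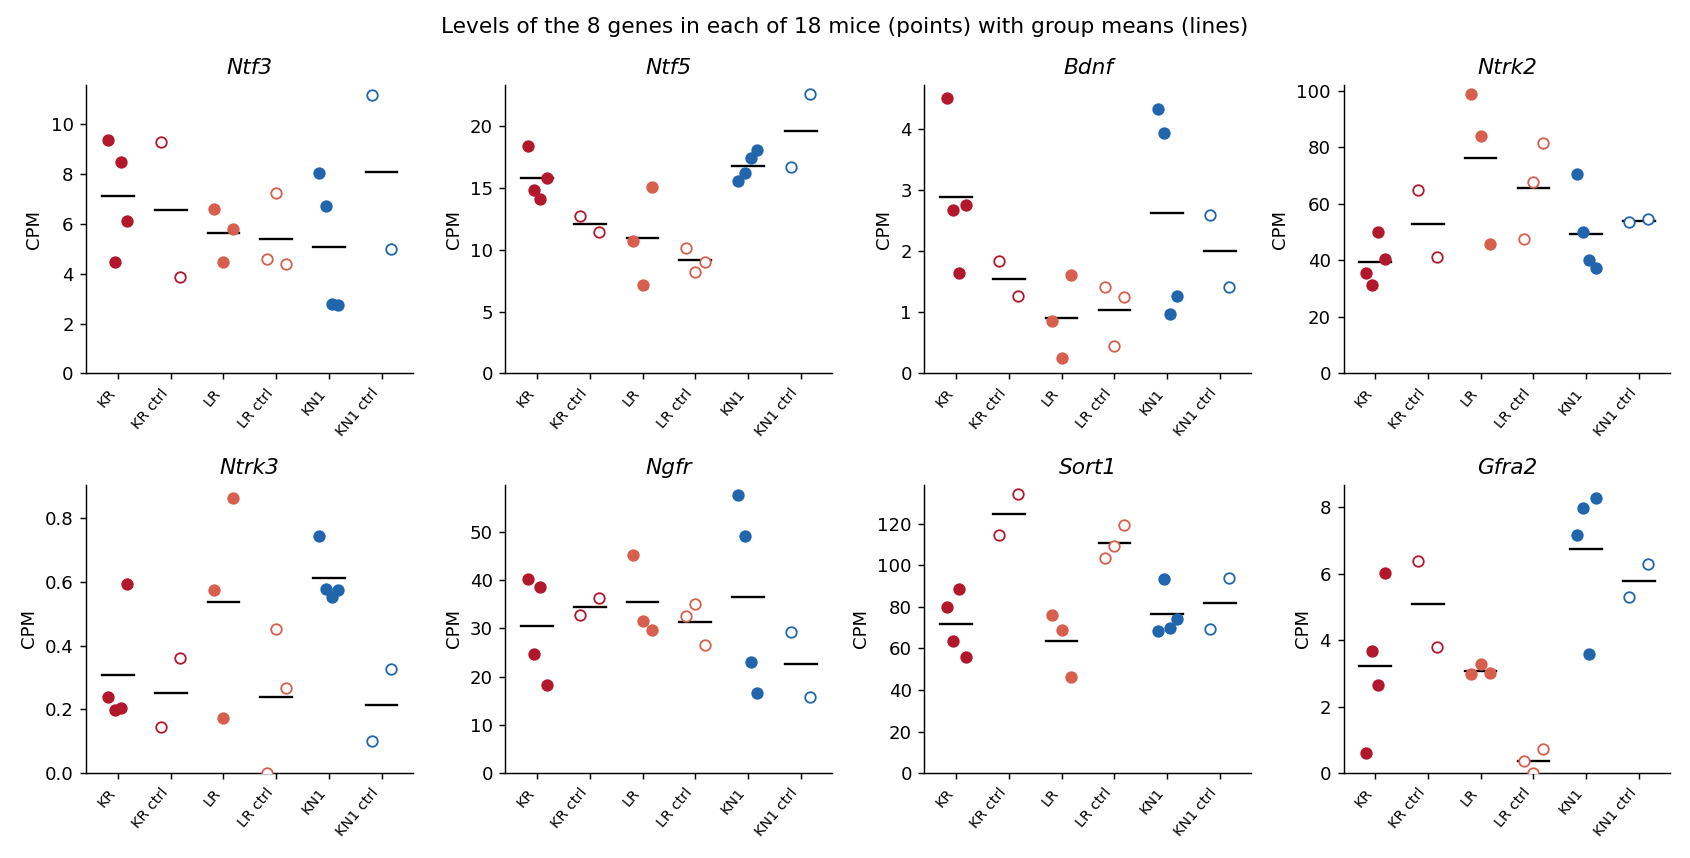
Levels of the 8 genes in CPM (y axis, linear, from 0) in each of the 18 mice, with each mutant (filled points) left of its controls (open points) and black lines at group means. Sort1 in KR and LR mice, from 46.1 to 88.6 CPM, lies below all of their controls, from 103.3 to 134.4 CPM.

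The number of genes whose mutant and control mice did not overlap gives a second view of the same levels. In KR mice 2 of the 7 tested genes did not overlap with controls (Ntf5 above, Sort1 below), against 38.4% of all tested genes. In LR mice there were also 2 (Gfra2 above, Sort1 below), against 19.6% of all tested genes. In KN1 mice there were 0, against 28.1%. With only 7 genes these counts are too small to be set apart from the background, so they are no result about the listed genes.

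Levels of different genes were compared only per length, as CPM per kb of the union of annotated exons, over the 7 control mice. Sort1 was highest in the control mice at 14.05 ± 2.73 CPM per kb (SD, n = 7), followed by Ngfr at 8.63 ± 2.03, Ntf5 at 4.90 ± 1.91, Ntf3 at 3.79 ± 1.64 and Ntrk2 at 3.04 ± 0.71. Gfra2 was at 0.92 ± 0.81, Bdnf at 0.235 ± 0.105 and Ntrk3 at 0.0078 ± 0.0053 CPM per kb. Over the controls Ngfr (4.57 to 10.54 CPM per kb) overlapped Ntf5 (3.11 to 8.51) in range. Ntf5 overlapped Ntf3 (2.26 to 6.51), and Ntf3 overlapped Ntrk2 (2.14 to 4.23). Within single mice, Ngfr was below Ntf5 only in KN1 control 7, and Ntf3 was below Ntrk2 only in LR control 5. Ntf5 was below Ntf3 in KR control 4, LR control 3 and KN1 control 1. Sort1 (9.18 to 17.76) overlapped Ngfr in range but was above Ngfr in each of the 7 control mice. Gfra2 (0 to 1.80) overlapped Bdnf (0.073 to 0.418) in range and was below Bdnf in LR controls 2 and 3. The exon unions of Ntrk2 (19.29 kb) and Ntrk3 (30.17 kb) join long alternative isoforms, which lowers their values on this scale.

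Among the ligands, Ntf3 encodes neurotrophin-3, the main ligand of the receptor made from Ntrk3. The gene lies on chromosome 6 from 126101412 to 126166910, minus strand (GRCm38, as mm10). KR mice 1, 3, 4 and 5 had 9.38, 4.46, 8.49 and 6.12 CPM, against 9.27 and 3.87 CPM in KR controls 4 and 6. LR mice 1, 2 and 3 had 6.62, 4.48 and 5.82 CPM, against 4.61, 7.23 and 4.38 CPM in LR controls 2, 3 and 5. KN1 mice 1 to 4 had 8.04, 6.71, 2.77 and 2.76 CPM, against 11.2 and 4.99 CPM in KN1 controls 1 and 7. Mutants overlapped their controls in every batch, and KN1 mice 3 and 4 were the lowest of the 18. The log2 fold change of Ntf3 in KR was 0.09 ± 0.45 (adjusted p = 0.928). That in LR was 0.06 ± 0.44 (adjusted p = 0.965), and that in KN1 was -0.69 ± 0.45 (adjusted p = 0.43).

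Ntf5 encodes neurotrophin-4, a ligand of the receptor made from Ntrk2, and lies on chromosome 7 from 45413695 to 45417179, plus strand. In KR mice 1, 3, 4 and 5 it was at 18.4, 14.9, 14.1 and 15.8 CPM, against 12.8 and 11.4 CPM in KR controls 4 and 6. In LR mice 1, 2 and 3 it was at 10.7, 7.16 and 15.1 CPM, against 10.2, 8.25 and 9.03 CPM in LR controls 2, 3 and 5. In KN1 mice 1 to 4 it was at 15.6, 16.2, 17.4 and 18.04 CPM, against 16.7 and 22.6 CPM in KN1 controls 1 and 7. All 4 KR mice lay above both of their controls, whereas the groups overlapped in LR and KN1. The log2 fold change in KR was 0.38 ± 0.23, with an adjusted p of 0.324. It was 0.26 ± 0.22 in LR mice, with an adjusted p of 0.611, and -0.22 ± 0.22 in KN1 mice, with an adjusted p of 0.636.

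Bdnf encodes brain-derived neurotrophic factor, the other ligand of the Ntrk2 receptor, and lies on chromosome 2 from 109674700 to 109727007, plus strand. KR mice 1, 3, 4 and 5 had 4.51, 2.67, 1.64 and 2.76 CPM, against 1.84 and 1.26 CPM in KR controls 4 and 6. LR mice 1, 2 and 3 had 0.863, 0.259 and 1.62 CPM, against 1.42, 0.452 and 1.25 CPM in LR controls 2, 3 and 5. KN1 mice 1 to 4 had 4.33, 3.94, 0.969 and 1.26 CPM, against 2.60 and 1.41 CPM in KN1 controls 1 and 7. Groups overlapped in all 3 batches, and KR mouse 1 with KN1 mice 1 and 2 were the highest of the 18. KR mice differed from their controls by 0.87 ± 0.63 on the log2 scale (adjusted p = 0.417), LR mice by -0.23 ± 0.68 (adjusted p = 0.908) and KN1 mice by 0.36 ± 0.62 (adjusted p = 0.803). An antisense gene, Gm45346, shares 896 exon bases with Bdnf, and the sources used here do not say whether the counting used strand.

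Since Rbpj was the deleted gene in KR and LR, the windows before the start sites of the listed genes were searched for the core letters of its binding site. The motif TGGGAA was searched on both strands in the 250 bases before each start, in the RefSeq promoter windows of GRCm38.p6, with no other motif searched. Of the 8 genes, 4 had windows (11 in all), and 3 windows held the motif, which 21.6% of 32851 windows of all genes also held. The 3 matches belong to ligand genes and are shown 5′ to 3′ on the strand of the gene with 10 bases on each side, with the motif or its reverse complement in capitals.
Bdnf, 1 of 7 windows, motif at chr2:109692831-109692836 (plus strand of GRCm38.p6): tttggtctgcTGGGAAgcatatggct
Ntf3, first of 2 windows, motif at chr6:126166945-126166950 (gene on the minus strand): cgttccttccTTCCCAgagaatcaag
Ntf3, second of 2 windows, motif at chr6:126165116-126165121 (gene on the minus strand): tgactaggtcTTCCCAttggtctcga
The Bdnf match reads in the direction of the gene, 196 bases before that start, and both Ntf3 matches read on the opposite strand, 206 and 161 bases before their starts. The single windows of Ngfr and Ntrk2 held no match. A match is only a run of letters, and neither Ntf3 nor Bdnf changed past the threshold in KR or LR mice.

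Among the receptors, Ntrk2 encodes TrkB, the kinase receptor for the products of Bdnf and Ntf5, and lies on chromosome 13 from 58806569 to 59133970, plus strand. It was at 35.5, 31.4, 49.8 and 40.6 CPM in KR mice 1, 3, 4 and 5, against 64.7 and 41.3 CPM in KR controls 4 and 6. It was at 98.7, 84.0 and 45.8 CPM in LR mice 1, 2 and 3, against 47.4, 67.8 and 81.6 CPM in LR controls 2, 3 and 5. It was at 70.4, 49.9, 40.1 and 37.2 CPM in KN1 mice 1 to 4, against 53.5 and 54.5 CPM in KN1 controls 1 and 7. The LR batch held both the highest mice of the 18 and the widest range among controls, and groups overlapped in every batch. On the log2 scale KR mice differed from controls by -0.43 ± 0.30 (adjusted p = 0.399), LR mice by 0.21 ± 0.29 (adjusted p = 0.774) and KN1 mice by -0.13 ± 0.31 (adjusted p = 0.862).

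Ntrk3, which encodes TrkC, the receptor for neurotrophin-3, lies on chromosome 7 from 78175959 to 78738012, minus strand, and was barely detected. KR mice 1, 3, 4 and 5 had 0.237, 0.198, 0.205 and 0.592 CPM, against 0.145 and 0.360 CPM in KR controls 4 and 6. LR mice 1, 2 and 3 had 0.575, 0.173 and 0.862 CPM, against 0, 0.452 and 0.268 CPM in LR controls 2, 3 and 5. KN1 mice 1 to 4 had 0.743, 0.579, 0.554 and 0.574 CPM, against 0.102 and 0.326 CPM in KN1 controls 1 and 7. The 4 KN1 mice lay above both of their controls and the other groups overlapped, but the values rest on 0 to 8 reads per mouse. Reads summed to 20 in KN1 mice against 5 in their controls, to 16 in LR mice against 7 in their controls and to 12 in KR mice against 7 in their controls. No test was made, and differences of this size were not resolved at this depth.

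Ngfr encodes p75NTR, which binds all neurotrophins, and lies on chromosome 11 from 95568818 to 95587735, minus strand. KR mice 1, 3, 4 and 5 had 40.3, 24.8, 38.6 and 18.3 CPM, against 32.7 and 36.3 CPM in KR controls 4 and 6. LR mice 1, 2 and 3 had 45.2, 31.5 and 29.6 CPM, against 32.5, 35.02 and 26.5 CPM in LR controls 2, 3 and 5. KN1 mice 1 to 4 had 57.7, 49.1, 23.0 and 16.5 CPM, against 29.3 and 15.7 CPM in KN1 controls 1 and 7. KN1 mice split into a high pair (1 and 2) and a low pair (3 and 4), the same mice that were high and low for Ntf3 and Bdnf. The fitted log2 difference was -0.18 ± 0.42 for KR mice (adjusted p = 0.828), 0.18 ± 0.40 for LR mice (adjusted p = 0.876) and 0.69 ± 0.44 for KN1 mice (adjusted p = 0.421).

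Ngfr is also a marker of Schwann cells, the glia of skin nerves, and nerve-associated cells were examined through their other markers. Of 15 Schwann cell markers, Ngfr left out, 14 were in the table. Their summed level was 297.0 to 410.3 CPM in KR mice against 385.3 to 413.5 CPM in their controls, 390.6 to 435.9 CPM in LR mice against 457.8 to 498.7 CPM in their controls, and 313.0 to 381.1 CPM in KN1 mice against 304.9 to 305.7 CPM in their controls. The sum was thus below all controls in LR mice, above all controls in KN1 mice and overlapping in KR mice, and the part of this in the Ngfr values was not tested. None of the 10 tested Schwann markers passed in any mutant, and their median log2 fold change was -0.17 in KR, 0.20 in LR and 0.12 in KN1. Only 4 of 15 neuron markers were in the table, and their sum was 1.42 to 4.34 CPM in KR mice against 0.724 to 2.07 CPM in their controls, 0.959 to 2.41 CPM in LR mice against 0.678 to 1.16 CPM in their controls, and 1.11 to 4.399 CPM in KN1 mice against 1.32 to 1.41 CPM in their controls. In bulk RNA of this kind, fewer cells of a type and less RNA per cell cannot be told apart.

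Sort1, which encodes sortilin, lies on chromosome 3 from 108284082 to 108361511, plus strand. KR mice 1, 3, 4 and 5 had 80.0, 63.5, 88.6 and 55.9 CPM, against 114.7 and 134.4 CPM in KR controls 4 and 6. LR mice 1, 2 and 3 had 76.0, 68.8 and 46.1 CPM, against 103.3, 109.2 and 119.5 CPM in LR controls 2, 3 and 5. KN1 mice 1 to 4 had 68.2, 93.3, 70.0 and 74.2 CPM, against 69.5 and 94.0 CPM in KN1 controls 1 and 7. Every Rbpj mutant of both kinds was below every control of its batch, while KN1 mice lay within or just below the range of their controls. The controls of the KN1 batch were themselves lower than those of the KR and LR batches and within or just above the range of the Rbpj mutants.

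Sort1 averaged 72.0 ± 15.0 CPM in KR mice (SD, n = 4) against 124.6 ± 13.9 CPM in their controls (n = 2), a log2 fold change of -0.79 ± 0.20 that missed the threshold (adjusted p = 0.0539). In LR mice it averaged 63.7 ± 15.6 CPM (n = 3) against 110.7 ± 8.17 CPM in their controls (n = 3), a log2 fold change of -0.80 ± 0.20 (adjusted p = 0.0578). In KN1 mice the log2 fold change was -0.09 ± 0.21 (adjusted p = 0.85). A contrast of the average of both Rbpj mutants against the average of their controls was added after these values had been seen. On it Sort1 fell by 0.79 ± 0.14 on the log2 scale (adjusted p = 0.00302), with the control level 1.73-fold that of the mutants and all 7 mutants below all 5 controls. It was the single one of the 7 tested genes to pass on that contrast, beside 12.7% of all tested genes, and because the contrast was chosen for what Sort1 showed, its p is a description. DESeq2 passed Gfra2 and Sort1 on it, beside 17.6% of all genes given an adjusted p. Without the 3 second-named controls the average for Sort1 was -0.72 (adjusted p = 0.035). Without the 8 mice with high hair matrix genes it was -0.73, with -0.55 in KR, -0.90 in LR and -0.25 in KN1. That fit leaves 1 KR mouse and 1 KR control, so no call is drawn from it. A pass of Sort1 without those mice was thus not shown.

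Whether the Sort1 change differed between mutants was tested as a difference of contrasts, and no difference passed. KR minus LR was 0.01 ± 0.28 (adjusted p = 0.998), KR minus KN1 was -0.70 ± 0.29 (adjusted p = 0.632) and LR minus KN1 was -0.70 ± 0.29 (adjusted p = 0.628). The average of both Rbpj mutants minus KN1, also added later, was -0.70 ± 0.25 (adjusted p = 0.476), a contrast on which 0% of all tested genes passed. Sort1 was therefore not shown to respond differently to loss of Rbpj and of Notch1. An antisense gene, Gm12523, shares 338 exon bases with Sort1, so reads of the pair could not be told apart if strand was not used.

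**Figure D2:**
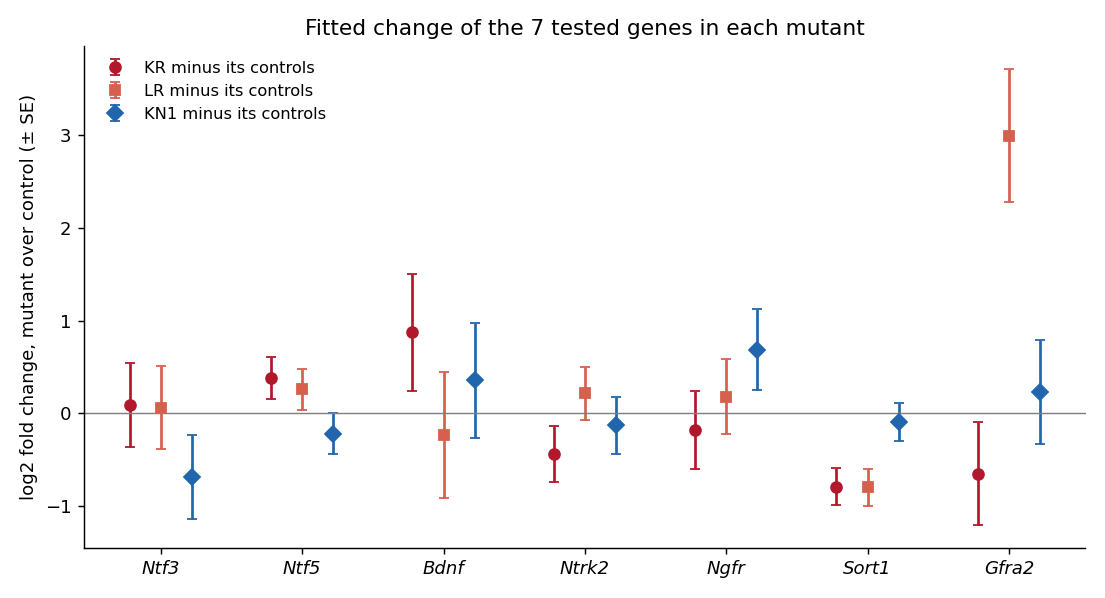
Log2 fold change of mutants over their own controls (y axis, points, with bars of 1 SE) for the 7 tested genes (x axis), with KR, LR and KN1 from left to right for each gene. Sort1 lies at -0.79 in KR, -0.80 in LR and -0.09 in KN1, and Gfra2 in LR at 2.99 has the largest value and a wide bar.

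Summed levels of markers of keratinocyte layers and Langerhans cells also stood apart in some of the groups in which Sort1 was low. The summed level of 16 markers of suprabasal, differentiating keratinocytes was 14140 to 29970 CPM in KR mice against 33760 to 34080 CPM in their controls, 13510 to 34420 CPM in LR mice against 23790 to 41510 CPM in theirs, and 39970 to 48410 CPM in KN1 mice against 46480 to 47420 CPM in theirs. One of the 16, the desmosomal cadherin gene Dsg1a, fell in KR (-1.40 ± 0.31, adjusted p = 0.0385), and none of the 16 passed in LR or KN1. Of the 16, 15 had a negative change in KR, 15 in LR and 10 in KN1. The median log2 fold change of the 16 was -0.61 in KR, -0.42 in LR and -0.12 in KN1. The summed level of 15 basal markers was 32150 to 38300 CPM in KR mice against 26630 to 28640 CPM in their controls, and 30400 to 32200 CPM in LR mice against 25550 to 29100 CPM in theirs. Of the basal markers the keratin gene Krt14 rose in KR (0.82 ± 0.16, adjusted p = 0.0211) and none passed in LR. Krt14 alone averaged 10320 CPM in KR mice against 5832 CPM in their controls. In KR and in LR 9 basal markers had a positive change and 6 a negative one. Their median log2 fold change was 0.06 in KR and 0.10 in LR, beside 0.04 and -0.0041 over all tested genes. In KN1 the basal sum overlapped (34220 to 38500 CPM in mutants, 31620 to 35240 CPM in controls), and Itgb4 rose. The summed level of 12 Langerhans cell markers was 2086 to 2366 CPM in KR mice against 1084 to 1699 CPM in their controls. It overlapped in LR (1285 to 1904 CPM in mutants, 937.7 to 1409 CPM in controls). In KN1, where the Sort1 change was -0.09, it lay below all controls (1554 to 1787 CPM in mutants, 2060 to 2894 CPM in controls). Of the 11 Langerhans cell markers tested, 10 had a positive change in KR, 10 in LR and 2 in KN1. The part of these shifts in the Sort1 result was not tested.

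Gfra2, on chromosome 14 from 70890120 to 70979838, plus strand, was higher in every LR mouse than in any LR control. LR mice 1, 2 and 3 had 2.97, 3.28 and 3.02 CPM, against 0.355, 0 and 0.715 CPM in LR controls 2, 3 and 5. These levels rest on 97 reads summed over the LR mice against 11 reads over their controls. In the KR and KN1 batches mutants and controls overlapped. KR mice 1, 3, 4 and 5 had 0.594, 3.67, 2.66 and 6.02 CPM, against 6.38 and 3.78 CPM in KR controls 4 and 6. KN1 mice 1 to 4 had 7.18, 7.99, 3.60 and 8.27 CPM, against 5.30 and 6.29 CPM in KN1 controls 1 and 7. The 3 LR controls were lower than the other 4 controls, whereas the LR mice lay within the range of KR mice.

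In LR mice the log2 fold change of Gfra2 was 2.99 ± 0.72 and missed the threshold (adjusted p = 0.0525). It was -0.65 ± 0.55 in KR (adjusted p = 0.496) and 0.23 ± 0.56 in KN1 (adjusted p = 0.862). Pooling all 7 controls adds controls of other batches and so mixes batch with genotype. On that comparison the value in LR turned to -0.11 (adjusted p = 0.943), so the LR value depends on which controls are used. Without the 8 mice with high hair matrix genes it was 2.92, and no call is drawn from that fit. The difference KR minus LR was -3.64 ± 0.91 (adjusted p = 0.98) and LR minus KN1 was 2.76 ± 0.91 (adjusted p = 0.482). Beside it, sums of several marker lists stood apart in LR. That of 16 sebocyte markers was 2666 to 3807 CPM in LR mice against 4520 to 4680 CPM in their controls. It overlapped in KR (3005 to 11520 CPM in mutants, 4366 to 5392 CPM in controls) and in KN1. Of the 16, 14 had a negative change in LR and 12 in KN1, and 15 a positive one in KR. The sum of 10 hair germ markers was 1201 to 1348 CPM in LR mice against 1010 to 1190 CPM in their controls. The basal sum also lay above all LR controls, and the Schwann sum below them. The part of these shifts in the Gfra2 result was not tested.

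**Figure D3:**
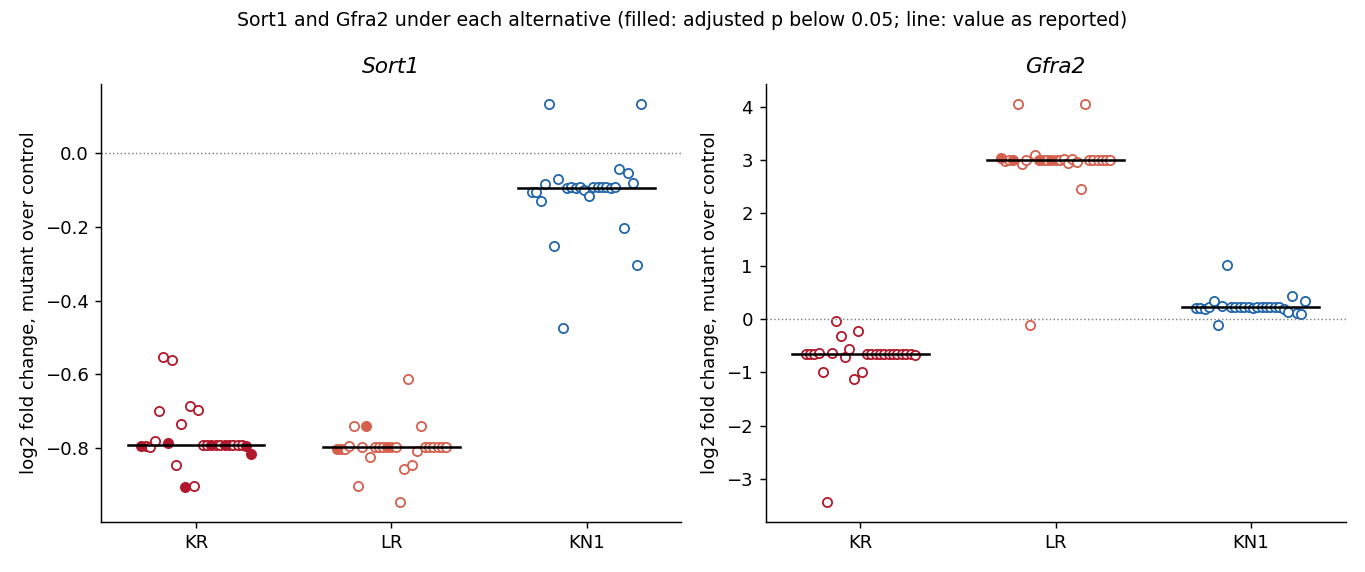
Log2 fold change (y axis) of Sort1 and Gfra2 in each mutant (x axis) under each alternative analysis, 1 point each, filled where the adjusted p was below 0.05, with a black line at the value reported. Sort1 kept a negative sign under every alternative in KR (-0.91 to -0.55) and in LR (-0.95 to -0.61), and Gfra2 in LR ran from -0.11 to 4.06.

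Over all 3 differences between mutants, none of the 7 tested genes passed. The background was 0.00605% of all tested genes for KR minus LR, 0% for KR minus KN1 and 0.00605% for LR minus KN1. At an unadjusted p below 0.05 in edgeR the counts were 1 (Gfra2), 1 (Sort1) and 2 (Gfra2 and Sort1). Of all tested genes 4.15%, 7.57% and 7.04% were below it. DESeq2 called 0 of the 7 in each, and 4, 38 and 67 genes of the whole series. The responses of the 3 mutants were therefore not distinguished for any tested gene of the list.

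The genes whose levels across the 18 mice were most like those of each listed gene were taken by Pearson's r of log2 CPM, as a description, since the mice share batches and depth. For Sort1 they were Adgra3 (r = 0.929), Nipal2 (0.92) and Plxdc2 (0.91), and for Gfra2 they were Gna12 (0.891), Snupn (0.815) and Slc38a10 (0.81). For Ntf3 they were Zfp94 (0.916), Igip (0.844) and Cmtm3 (0.837), for Ntf5 Ptms (0.929), Shf (0.927) and Cdipt (0.926), and for Bdnf Pomgnt2 (0.882), Panx1 (0.88) and Mlst8 (0.846). For Ntrk2 they were Rasgrf1 (0.86), Trim12a (0.822) and Grin2a (0.81), and for Ngfr Bcl7a (0.833), Hoxa5 (0.827) and RP23-393G10.4 (0.815). Among the listed genes themselves the highest r was 0.67, between Bdnf and Ntf5, and the pair Ngfr and Ntf3 had 0.537.

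Other genes that act around the neurotrophins, such as precursor-cleaving proteases, adaptors of the receptors and relatives of sortilin, were described as a list that was shortened after its values had been seen. What was taken out bears on how many passed, so no count of called genes is given for it. Gab2, a docking protein downstream of receptor kinases, fell in LR to 8.69 ± 2.22 CPM, against 23.4 ± 6.89 CPM in LR controls (log2 fold change -1.43 ± 0.22, adjusted p = 0.00216). Gab2 was at -0.27 ± 0.22 in KR (adjusted p = 0.478) and -0.75 ± 0.23 in KN1 (adjusted p = 0.0918). Below the call in KR were Traf6, an adaptor that binds Ngfr (-0.70 ± 0.18, adjusted p = 0.056), and Pcsk6, a protease of the family that cleaves neurotrophin precursors (-0.88 ± 0.25, adjusted p = 0.0723). In KN1 Irak1, a kinase that works with Traf6, did not pass either (0.42 ± 0.11, adjusted p = 0.0566).

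Of 11 other genes of the GDNF family and its receptors, 6 were tested and 0 passed by edgeR in KR, LR or KN1. Nrtn, which encodes the ligand of Gfra2, was at 141.3 to 257.6 CPM in KR mice against 84.4 to 148.3 CPM in their controls (0.73 ± 0.41, adjusted p = 0.294). It was at 63.8 to 129.2 CPM in LR mice against 36.0 to 120.0 CPM in their controls (adjusted p = 0.815), and at 291.4 to 335.6 CPM in KN1 mice against 234.1 to 330.7 CPM in theirs (adjusted p = 0.862). Ret, the kinase partner of Gfra2, averaged 3.30 CPM in KR mice against 3.37 CPM in their controls, 1.84 CPM in LR mice against 2.48 CPM in theirs, and 1.97 CPM in KN1 mice against 1.47 CPM in theirs.

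A list of 31 other genes of nerve growth and axon guidance, 28 of them tested, held 4 that rose in LR by edgeR, where 1.12% of all tested genes were called, and 0 that passed in KR (1.6%) or KN1 (1.97%). The list was chosen with earlier results of these data known, so no excess in LR is read from this count. Lif, a cytokine with trophic action on neurons, averaged 4.89 CPM in LR mice against 1.33 CPM in their controls (log2 fold change 1.87 ± 0.36, adjusted p = 0.0145). Lingo1, a membrane partner of Ngfr in the Nogo receptor complex, averaged 26.6 CPM in LR mice against 7.33 CPM in their controls (1.86 ± 0.36, adjusted p = 0.0163). It was at 1.13 ± 0.39 in KR (adjusted p = 0.117) and 1.19 ± 0.41 in KN1 (adjusted p = 0.139). The ephrin gene Efnb1 rose by 0.53 ± 0.13 in LR (adjusted p = 0.0451) and the semaphorin gene Sema4d by 0.69 ± 0.16 (adjusted p = 0.0451). The median of the list was 0.06 in LR, 0.11 in KR and 0.08 in KN1, beside -0.0041, 0.04 and 0.018 over all tested genes.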

How the data were processed

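Raw counts of reads per gene in 18 libraries were deposited by the authors with no normalization. Per the submitters' processing notes, STAR, HTSeq, DESeq2 and the mouse build mm10 were used. Versions, the step each tool was used for, and the use of strand are not given in the sources used here. Column names gave the mouse of each of the 18 columns. Of 21011 symbols, 15418 were found in GENCODE M21 (GRCm38), among them all 8 listed genes. Exon unions and coordinates came from that annotation, and promoter windows from RefSeq.

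CPM values and changes were computed here from the deposited counts with edgeR 4.0.16 in R 4.3.3 (limma 3.58.1), using TMM factors, filterByExpr (16517 genes kept), robust quasi-likelihood F tests over 6 group means and Benjamini-Hochberg adjustment at 0.05, two-sided. The SE was taken from the F statistic, and log2 CPM used a prior count of 2. The spread was estimated over all 18 mice at once, with a common biological coefficient of variation of 0.225, which groups of 2 controls also rely on. The fit was tested on simulated data. Results were recomputed with DESeq2 1.42.0, with RLE factors, without a filter, with a minimum mean CPM of 1, within each batch, against pooled controls, with a replicate block, without the 3 second-named controls (those with a second name in the labels) and leaving out each mouse. Later, with the values known, the averaged contrast and the omission of 8 mice with a hair matrix sum above 100 CPM were added.

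The listed genes and the gene lists were chosen with earlier results of these data known. Named genes were every listed gene, up to 4 of each list by adjusted p, and the 3 most alike by r. The list of other neurotrophin pathway genes was shortened after its values were seen, and some results are not reported here. The spread behind each p-value is that between individual mice. All libraries were kept as separate samples, since within groups every pair gave a chi-square per degree of freedom of 6.11 or more.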

Additional observations from a re-analysis of the deposited data

Results flagged for a closer look

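Both values that stood far from the rest of their group belong to Ntrk3, the gene of the neurotrophin-3 receptor, which was barely detected. KR mouse 5 had 0.5919 CPM of Ntrk3, against 0.1981 to 0.2374 CPM in the other 3 KR mice, a gap of 0.9 of the range of the group. KN1 mouse 1 had 0.7425 CPM, against 0.5537 to 0.5788 CPM in the other 3 KN1 mice, a gap of 0.867 of the range. Both gaps exceed the 95% critical value of Dixon's test for 4 samples, which chance passes in about 1 in 20 groups. Each of these values rests on 6 reads.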

How the results depend on the processing

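Of 553 values of 21 changes under alternatives, 509 kept direction and side of the threshold, 14 newly passed and 30 reversed. None of the 21 had passed as reported, so none could lose a call. The count of listed genes past the threshold was 0 in KR, where 264 of all tested genes passed. It was 1 with DESeq2 (1086 of all genes) and with the KR batch fitted alone (672). With a KR mouse left out it was 0 to 1, where 19 to 651 of all genes passed. In LR it was 0, where 185 of all tested genes passed. It was 2 with DESeq2 (547 of all genes), 1 with a mean CPM of at least 1 (202) and 1 with pooled controls (1052). With a KR mouse left out it was 0 to 2 in LR, where 167 to 184 of all genes passed. With a replicate block in LR it was 0. Replicate numbers are shared by only 2 pairs there, whose deviations correlated at 0.0656 and -0.0842, so they do not pair the mice. On the averaged contrast the count was 1, beside 2099 of all tested genes, and 2 with DESeq2, beside 2851. It was 2 without KR mouse 1 (Gfra2 added, 1737 of all genes) or LR mouse 2 (Ntf5 added, 2092). Without the 8 mice with high hair matrix genes Sort1 was at -0.73 on that contrast, and no call is drawn from that fit. A pass of Sort1 without those mice was thus not shown. Under the other alternatives run Sort1 passed (1.79e-05 to 0.035). Sort1 passed in KR without KR mouse 4 (adjusted p = 0.0284), LR mouse 3 (0.0312), LR control 5 (0.0296), KN1 control 1 (0.0496) or KN1 control 7 (0.0462), and its adjusted p over all alternatives there ran from 0.0133 to 0.903. In LR it passed without KR mouse 5 (0.0493; range 0.0097 to 0.336). Gfra2 in LR passed without KR mouse 1 (0.0149) or KR mouse 5 (0.0364), with a range of 0.00106 to 0.943.

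Some changes reversed in sign, and none of the 21 changes had passed to begin with. Without the 3 second-named controls, Ntf3 was at -0.41 in KR and -0.078 in LR, Ntf5 at 0.0046 in KN1 and Sort1 at 0.13 in KN1. With pooled controls, Ngfr was at 0.034 in KR, Ntf3 at -0.22, Ntf5 at -0.25 and Gfra2 at -0.11 in LR, and Ntf5 at 0.37 in KN1. Without the 8 mice, Ntf3 was at -0.017 and Ngfr at 0.26 in KR, Bdnf at 0.49 and Ntrk2 at -0.045 in LR, and Ntrk2 at 0.026 and Gfra2 at -0.10 in KN1. With each mouse left out, Ntf3 ran from -0.41 to 0.87 in KR, -0.075 to 0.32 in LR and -1.14 to 0.021 in KN1. Ngfr ran from -0.34 to 0.00038 in KR and -0.036 to 0.29 in LR. In LR, Ntrk2 ran from -0.015 to 0.48, Bdnf from -0.91 to 0.23 and Ntf5 from -0.033 to 0.49. In KN1, Ntf5 ran from -0.43 to 0.0043 and Sort1 from -0.30 to 0.13. The cause of these reversals was not tested. Depth limits Ntrk3, Bdnf and Gfra2 most, and controls numbered 2 in KR and KN1.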
